A study of Mus musculus with 12 samples.

Results

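The enzymes that build and break down triglyceride were followed in mouse bone marrow as 9 genes, taken by name from a table of 34745 genes: Agpat2, Lpin1, Dgat1 and Dgat2 for synthesis, Pnpla2, Lipe and Mgll for lipolysis inside the cell, and the secreted lipases Lpl and Lipg. All 9 were found under these names, and each was measured well enough to be tested in every comparison. Total RNA of femoral marrow cells came from 12 male ICR mice, an outbred stock, in 4 groups of 3. Normal mice received saline only. Model mice received cyclophosphamide, an alkylating drug that kills dividing cells and lowers the white cell count, at 80 mg/kg per day on days 5 to 7 of a 1-week course. QJSB mice received the same cyclophosphamide together with Qi-Jing-Sheng-Bai granule, a herbal formula given for leucopenia, at 3 g/kg per day for 1 week. Leucogen mice received the same cyclophosphamide together with leucogen, a drug used to raise leucocyte counts, at 20 mg/kg per day for 1 week. No group received either drug without cyclophosphamide.

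Triglyceride is made by adding fatty acids to a glycerol backbone in steps. Agpat2 makes phosphatidate, Lpin1 removes its phosphate to give diacylglycerol, and Dgat1 and Dgat2 add the last fatty acid. Stored droplets are broken down in the opposite order, by Pnpla2 (adipose triglyceride lipase) acting on triglyceride, Lipe (hormone-sensitive lipase) acting mainly on diacylglycerol and Mgll acting on monoacylglycerol, among them the endocannabinoid 2-arachidonoylglycerol. Lpl and Lipg work outside the cell, Lpl on the triglyceride of circulating lipoproteins and Lipg, endothelial lipase, mainly on the phospholipids of high-density lipoprotein. Most of these enzymes are best known from fat cells, and marrow also holds macrophages, stromal cells and developing blood cells that store or use lipid.

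Library totals ran from 11172547 to 18545198 counts, and no pair of libraries within a group agreed within counting error. Fat cell markers were low but not absent. Adipoq had at least 15 and Car3 at least 19 counts in every library. Of 7 fat cell markers the leptin gene Lep had 0 counts in every normal, model and QJSB library, and the summed level of the 7 was between 2.83 and 16.1 CPM (counts scaled to the library total, with TMM factors) in all 12 libraries. Marrow of mice given cyclophosphamide held little red cell, B cell and eosinophil RNA by summed markers. The erythroid sum was 8030 to 8920 CPM in normal mice and 50.6 to 442 in the other 9. That of B cells was 1000 to 1040 against 5.08 to 52.2, and that of eosinophils 1330 to 1670 against 58.7 to 258. Most of the eosinophil sum was Prg2 (mean 1070 of 1460 CPM in normal mice). Siglecf of the same list did not follow, with means of 17.3 CPM in normal, 15.4 in model, 18.9 in QJSB and 20.3 in leucogen mice. Late neutrophil markers summed to 9280 to 9890 CPM in normal mice, 1970 to 6050 in model mice, 3200 to 17700 in QJSB mice and 13600 to 17500 in leucogen mice. Mean Cd177 of this list was higher in model than in normal mice (722 against 539 CPM), while the other means were lower. In leucogen mice every mean was above that of model mice, but Mmp8 (1270 against 1310) and Retnlg (959 against 1230) were below normal. Model mouse 1 and QJSB mouse 1 stood apart with 504 and 586 CPM of stromal markers, against 138 to 271 in the other 10 libraries. Most of this was the collagen gene Col1a1, which is also made by bone-forming cells, with 305 and 424 CPM in these mice against 21.4 to 110 in the other 10. Without Col1a1 the other 5 stromal markers summed to 199 CPM in model mouse 1 and 162 in QJSB mouse 1, near the 161 to 188 of normal mice, and to 69.8 to 90.9 in the other model and QJSB mice. Of the 199 and 162 CPM, Cxcl12 alone had 117 and 98.9. Monocyte markers (4 genes) summed to 756 to 903 CPM in normal, 1800 to 2860 in model, 1310 to 1920 in QJSB and 1290 to 1650 in leucogen mice. Most of this sum was F13a1, with a mean of 506 of 837 CPM in normal and 1640 of 2260 in model mice. All 4 had higher means in model than in normal mice. Mean Ccr2 was not above normal in QJSB mice (209 against 219 CPM), nor was mean Csf1r in leucogen mice (84.9 against 95.9). In such bulk RNA, fewer cells that express a gene and less of its RNA per cell cannot be told apart.

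The balance among the enzymes was compared on the FPKM scale (fragments scaled to the length of the transcript and to the library total). In normal marrow Mgll was the highest of the 9 with 9.05 ± 2.16 FPKM (mean ± SD, n = 3), and Lipg the lowest with 0.411 ± 0.121. Agpat2, Dgat2, Lpl and Dgat1 lay close together, at 5.91 ± 3.11, 5.91 ± 0.06, 5.82 ± 0.29 and 5.61 ± 0.21 FPKM. Pnpla2 followed with 3.60 ± 0.66, Lpin1 with 2.74 ± 0.12 and Lipe with 1.72 ± 0.15 FPKM. The order was different in model marrow, where Dgat2 had 29.8 ± 17.7 FPKM, Lipg 23.3 ± 18.8 and Agpat2 12.3 ± 4.9, and Mgll with 0.357 ± 0.346 was the lowest. QJSB marrow had the same 3 enzymes at the top, Dgat2 with 41.1 ± 13.9, Lipg with 31.7 ± 39.8 and Agpat2 with 21.7 ± 13.7 FPKM. Leucogen marrow was led by Agpat2 with 25.6 ± 2.6 FPKM, Dgat2 with 21.1 ± 6.5 and Dgat1 with 9.92 ± 0.85.

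**Figure D1:**
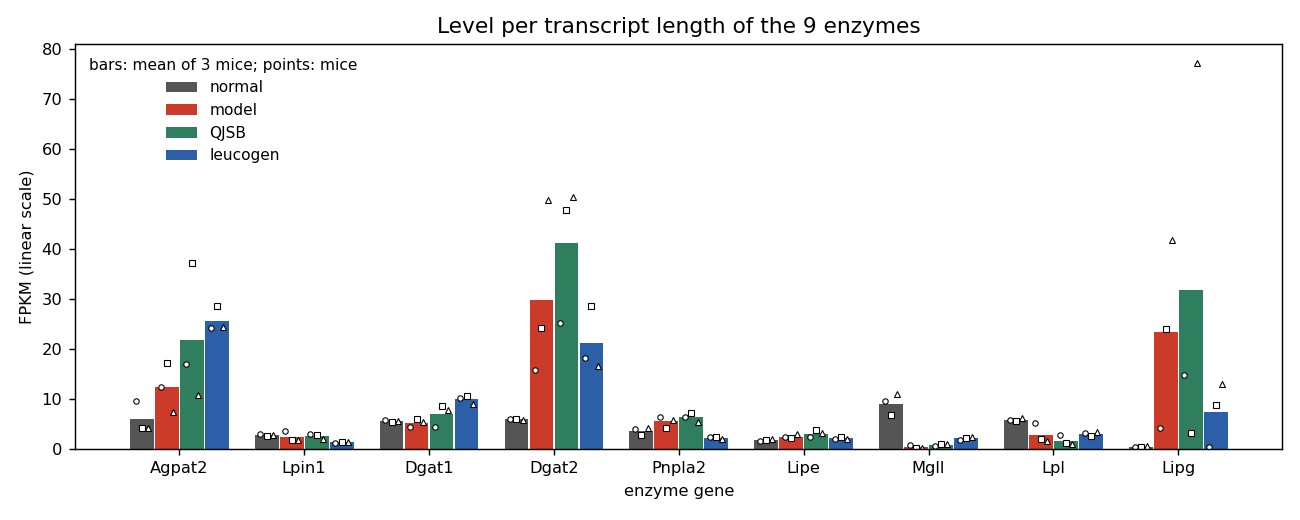
FPKM on a linear axis for the 9 enzymes, with a bar for the mean of each group of 3 mice and an open point for each mouse. Dgat2, Agpat2 and Lipg are the tall bars after cyclophosphamide, and the points of Lipg in QJSB mice spread more widely than those of any other bar.

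Summed over the 4 synthesis enzymes, the level was 18.1 to 24.2 FPKM in normal mice, 36.0 to 64.1 in model mice, 49.5 to 96.1 in QJSB mice and 51.1 to 69.1 in leucogen mice. Every mouse given cyclophosphamide was thus above every normal mouse, mostly through Dgat2 and Agpat2. The sum of the 3 intracellular lipases ran the other way, with 11.2 to 16.9 FPKM in normal mice, 6.56 to 9.49 in model mice, 9.37 to 11.7 in QJSB mice and 6.06 to 6.87 in leucogen mice. Only QJSB mouse 2, at 11.7, reached the normal range. In model and QJSB mice the lower sum came through Mgll, with means of 9.05 FPKM in normal, 0.357 in model and 0.814 in QJSB mice. Mean Pnpla2 (3.60, 5.49 and 6.33) and Lipe (1.72, 2.45 and 3.03) were higher in model and QJSB than in normal mice. In leucogen mice mean Mgll (2.08) and Pnpla2 (2.20) were below normal, and Lipe (2.08) was above it. Within that sum the share of the lipases changed: the FPKM of Pnpla2 divided by that of Mgll was 0.374 to 0.426 in normal mice, 8.54 to 45.8 in model mice, 6.08 to 10.1 in QJSB mice and 0.798 to 1.29 in leucogen mice. The FPKM of Dgat1 was close to that of Dgat2 in normal mice, at 0.921 to 0.982 of it. This ratio was 0.109 to 0.273 in model mice, 0.155 to 0.179 in QJSB mice and 0.373 to 0.556 in leucogen mice. These sums and ratios are descriptions of the libraries and were not tested.

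**Figure D2:**
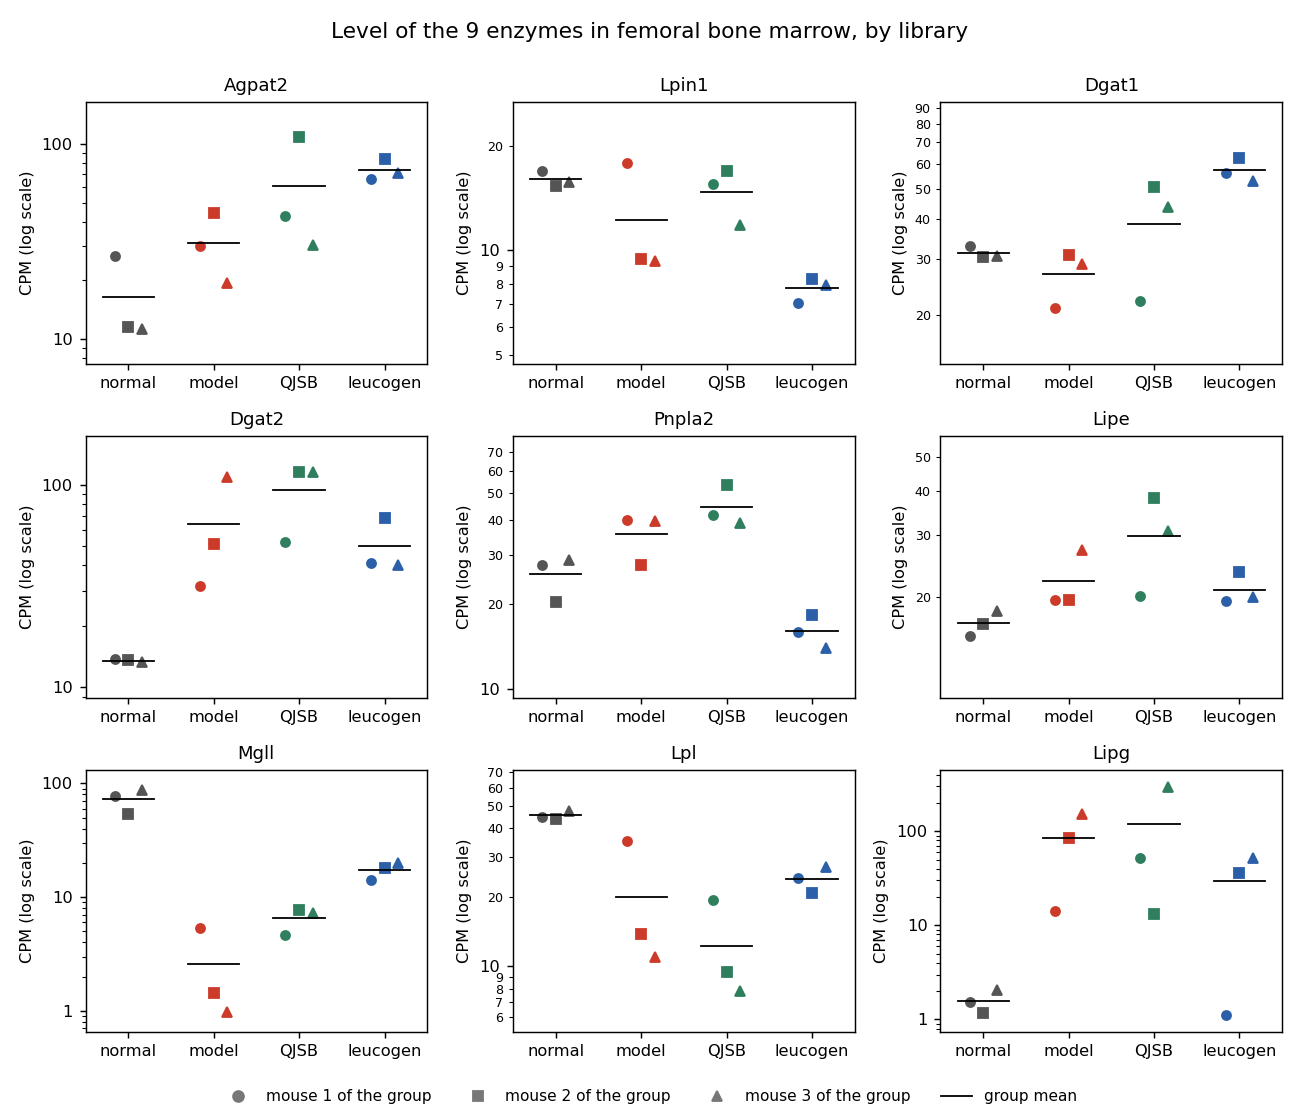
CPM of each enzyme in each of the 12 libraries on a log axis, with a marker shape for each mouse of a group and a line at the group mean. Mgll and Lpl have all normal mice above all others, Dgat2 has all normal mice below all others, and Lipg spreads 10.9-fold or more within the model, QJSB and leucogen groups.

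The effect of cyclophosphamide was asked by setting model against normal mice. Mgll fell, and Dgat2 and Lipg rose. A difference was called at a fold change over 1.5 with an adjusted p under 0.05 (quasi-likelihood test of edgeR, Benjamini-Hochberg adjustment over all genes tested). By this rule 3 of the 9 enzymes were called, 2 higher and 1 lower. Change was common in this comparison: 35.1% of 14752 genes were called, 16.1% higher and 19.0% lower. The study's own cutoff was the same fold with an unadjusted p under 0.05 in DESeq2. Here and below it is applied to the edgeR fit, where it took 4 of the 9 enzymes and 38.4% of all genes. The libraries of both groups did not overlap for 5 enzymes and for 55.5% of all genes. The median log2 fold change was 0.40 over the 9 enzymes and 0.02 over all genes. These shares of the enzymes were near those of all genes. Without model mouse 1, the model mouse with high Col1a1, 5 enzymes were called, with Lpl and Lpin1 added on the lower side, beside 35.4% of all genes.

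Mgll (chr6:88724412-88828360, plus strand, GRCm38; ENSMUSG00000033174) had 77.6, 54.1 and 87.5 CPM in the normal mice and 5.31, 1.42 and 0.98 in the model mice. All normal mice were far above all model mice. The log2 fold change was −4.80 (SE 0.61), a 27.9-fold fall (edgeR, adjusted p = 0.0012). Model mouse 1 had the most Mgll of its group, and without it the log2 fold change was −5.92. Gene models Gm44001, Gm44005 and Gm43999 lie within Mgll on its strand and were listed under clone names in the deposited table. Gm44001 had 22.0 to 22.9 CPM in normal and 0.751 to 0.993 in model mice, Gm44005 had 28.7 to 32.0 and 1.04 to 1.67, and Gm43999 had 23.0 to 26.8 and 1.04 to 1.85. By their profile over the 12 libraries Gm44001 and Gm44005 were also the nearest genes to Mgll among 10097 ranked, with root mean square differences of 0.67 and 0.73 in log2 CPM after each gene was centred on its own mean. How reads of such nested models were assigned is not given in the sources used here. The summed erythroid, B cell and eosinophil markers given above were lower in the same mice, and the part of these cells in the fall of Mgll was not tested.

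The lipases that act before Mgll were not called. Pnpla2 (chr7:141455198-141460743, plus strand; ENSMUSG00000025509) had 27.7, 20.3 and 28.9 CPM in normal and 40.0, 27.7 and 39.7 in model mice. The highest normal mouse lay above the lowest model mouse, and the log2 fold change of 0.49 (SE 0.20) was not called (edgeR, adjusted p = 0.0814). Lipe (chr7:25379527-25398710, minus strand; ENSMUSG00000003123) had 15.6, 16.8 and 18.3 CPM in normal and 19.7, 19.7 and 27.3 in model mice. Its groups did not overlap, but the log2 difference of 0.40 (SE 0.18) did not pass (edgeR, adjusted p = 0.108). Lipe shares its whole span with a gene model on the other strand, 4732471J01Rik, which had 9 to 32 counts per library.

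On the synthesis side the 2 enzymes of the final step parted. Dgat2 (chr7:99153663-99182713, minus strand; ENSMUSG00000030747) had 13.8, 13.6 and 13.3 CPM in normal and 31.6, 51.1 and 109 in model mice. Normal mice were nearly alike, and the model mice differed by 3.46-fold among themselves but all lay above them. The rise was 4.73-fold, a log2 fold change of 2.24 (SE 0.44; edgeR, adjusted p = 0.00622), and it was 1.62 on the log2 scale without model mouse 3. The summed monocyte markers, mostly F13a1, were likewise higher in every model mouse than in every normal mouse. Among the model mice this sum was 2860, 2120 and 1800 CPM in mice 1, 2 and 3. The part of monocytes in the rise of Dgat2 was not tested. Dgat1 (chr15:76502015-76511951, minus strand; ENSMUSG00000022555) had 33.0, 30.5 and 30.7 CPM in normal and 21.0, 30.9 and 29.0 in model mice. These overlapped, with a log2 difference of −0.21 (SE 0.17; edgeR, adjusted p = 0.351).

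The enzymes of the earlier steps were not called. Agpat2 (chr2:26593057-26604417, minus strand; ENSMUSG00000026922) had 26.7, 11.6 and 11.2 CPM in normal and 30.1, 44.0 and 19.5 in model mice. Normal mouse 1 lay inside the range of the model mice. The log2 difference was 0.92 (SE 0.43; edgeR, adjusted p = 0.125), and it was called when normal mouse 1 was left out (1.45, adjusted p = 0.017). Lpin1 (chr12:16535669-16589770, minus strand; ENSMUSG00000020593) had 16.9, 15.4 and 15.8 CPM in normal and 17.8, 9.43 and 9.35 in model mice. Model mouse 1 was above all normal mice and the other 2 below them. The log2 difference was −0.39 (SE 0.26; edgeR, adjusted p = 0.273), and without model mouse 1 it was −0.75 and called (adjusted p = 0.0126).

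The secreted lipases moved apart. Lpl (chr8:68880491-68907448, plus strand; ENSMUSG00000015568) had 44.9, 43.9 and 47.7 CPM in normal and 35.0, 13.9 and 11.0 in model mice. All model mice were below all normal mice, and model mouse 1 was much the nearest to them. The log2 difference of −1.18 (SE 0.41) just missed the threshold (edgeR, adjusted p = 0.0541). It passed without model mouse 1 (−1.85, edgeR adjusted p = 1.4e-04), in a fit of all 12 libraries (adjusted p = 0.0392) and in DESeq2 (adjusted p = 0.00389). Model mouse 1 was also the model mouse with the most stromal marker RNA, with or without Col1a1. The gene nearest to Lpl in profile was Cxcl12, a chemokine made by marrow stromal cells and itself among these markers (root mean square difference 0.23). Cxcl12 made up 117 of the 199 CPM without Col1a1 in model mouse 1, so these are not separate observations. Of the markers beside them, mean Kitl was lower in model than in normal mice (12.5 against 15.1 CPM). Mean Lepr (22.5 against 18.4), Pdgfra (6.11 against 4.89) and Pdgfrb (13.9 against 7.2) were higher. Cxcl12 had 122 to 137 CPM in normal mice and 117, 46.6 and 41.3 in the model mice, in the same order as Lpl and in each of them below every normal mouse. The part of stromal cells in the level of Lpl was not tested.

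Lipg (ENSMUSG00000053846), on the minus strand of chromosome 18, had 1.52, 1.17 and 2.07 CPM in normal and 14.1, 85.1 and 154 in model mice. The lowest model mouse was well above the highest normal mouse, although the model mice differed by 10.9-fold among themselves. The log2 fold change was 5.73 with a wide 95% interval of 3.28 to 8.19 (edgeR, adjusted p = 0.006). Its mean rise of 53.2-fold was the largest of the 9. The size depended on single mice, with a log2 fold change of 4.97 without model mouse 3 and 6.25 without model mouse 1.

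**Figure D3:**
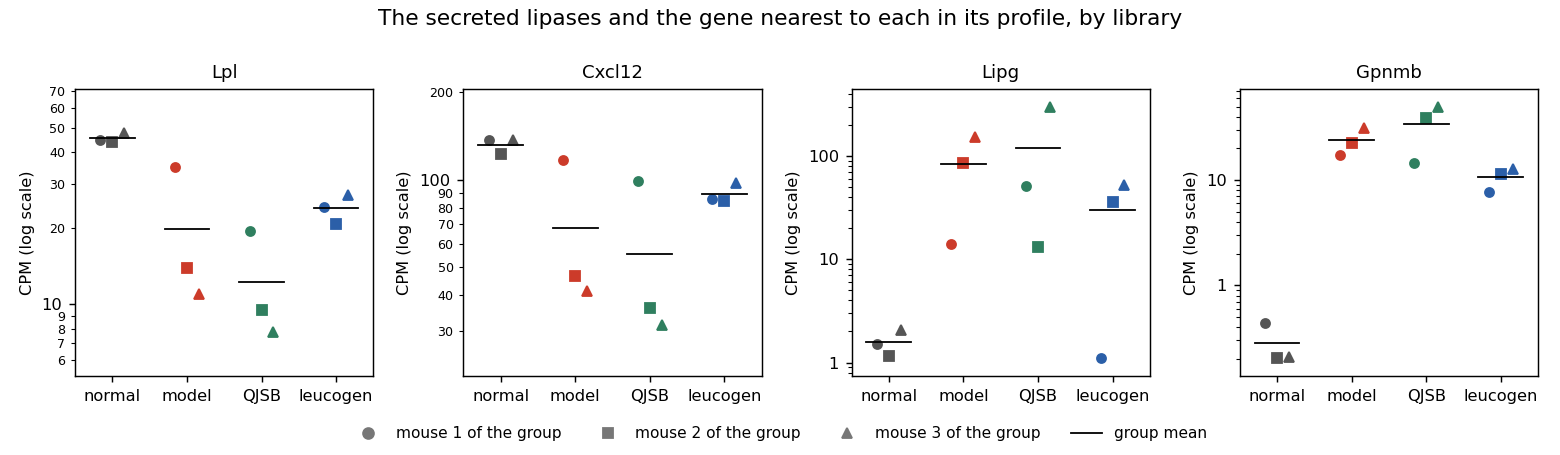
CPM on a log axis by library for Lpl and Lipg and, beside each, the gene nearest to it in profile, with marker shapes and mean lines as in the plot of all enzymes. Lpl and Cxcl12 share the high mouse 1 of the model and QJSB groups, while Gpnmb separates normal from all other mice and does not share the low values of Lipg in QJSB mouse 2 and leucogen mouse 1.

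Whether the granule moved these enzymes in mice given cyclophosphamide was asked by setting QJSB against model mice. None of the 9 was called (lowest unadjusted p 0.0544 in edgeR), none passed the study's cutoff in edgeR and for none did the libraries of both groups keep apart. Over all 14486 genes tested, 0% were called by the adjusted p in edgeR, although 723 genes had an unadjusted p under 0.05. The study's cutoff took 3.08% of all genes in edgeR, and 9.80% had groups that did not overlap. With DESeq2, which the study used, that cutoff took 668 of 21744 genes. Same-numbered mice of these groups deviated together, and a blocked fit on the replicate number called 18 genes and none of the enzymes. Read by number, the QJSB mouse was above the model mouse in all 3 pairs for Agpat2, Dgat1, Dgat2 and Lipe and below it in all 3 for Lpl. The blocked log2 differences of these were 0.80 (SE 0.21), 0.45 (SE 0.20), 0.64 (SE 0.21), 0.37 (SE 0.22) and −0.65 (SE 0.21), with adjusted p from 0.267 to 0.593 in edgeR. The share of all genes with the same sign in all 3 pairs was not counted, and the pairing comes from the data alone. These signs are therefore a description and not a result about the enzymes. DESeq2 called 8 genes and none of the enzymes. The median log2 difference was 0.50 over the 9 enzymes and −0.02 over all genes. The intervals without the block, given below for each enzyme, are wide, so a missing call does not show that levels were alike.

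Agpat2 had 42.9, 109 and 30.3 CPM in the QJSB mice. Mouse 2 was far above the other 2, which lay within the model range, and the log2 difference from model was 0.94 (95% interval −0.25 to 2.13). Dgat1 had 22.1, 50.5 and 43.9 CPM and Dgat2 52.1, 115 and 116 in the QJSB mice. For both, QJSB mouse 1 was the low one, and the differences from model of 0.51 (−0.19 to 1.20) and 0.55 (−0.60 to 1.69) on the log2 scale were not called. QJSB mouse 1 also had the fewest late neutrophil markers of its group, 3200 CPM against 17700 in mouse 2 and 11800 in mouse 3, and the part of neutrophils in these levels was not tested. Lpin1 had 15.5, 16.9 and 11.8 CPM, with a log2 difference from model of 0.26 (−0.42 to 0.94).

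Of the lipases, Mgll had 4.67, 7.70 and 7.25 CPM in the QJSB mice. The lowest was below model mouse 1, and the other 2 were above all model mice. The log2 difference of 1.32 was the largest of the 9 in size, with a 95% interval from −0.03 to 2.67 and an unadjusted p of 0.0544 in edgeR (adjusted p = 0.767). Pnpla2 had 41.5, 53.1 and 38.9 CPM and differed from model by 0.30 (−0.17 to 0.77) on the log2 scale. Lipe had 20.2, 38.3 and 30.9 CPM and differed by 0.41 (−0.18 to 0.99).

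Lpl had 19.5, 9.49 and 7.80 CPM in the QJSB mice, again with mouse 1 highest and with Cxcl12 at 98.9, 36.1 and 31.5 CPM in the same mice. The log2 difference of Lpl from model was −0.72 (95% interval −1.88 to 0.45). Lipg had 51.4, 13.1 and 298 CPM, a range of 22.8-fold that took in all the model values. Its log2 difference of 0.50 (−2.67 to 3.67) turned to −1.39 when QJSB mouse 3 was left out, so no direction can be given.

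**Figure D4:**
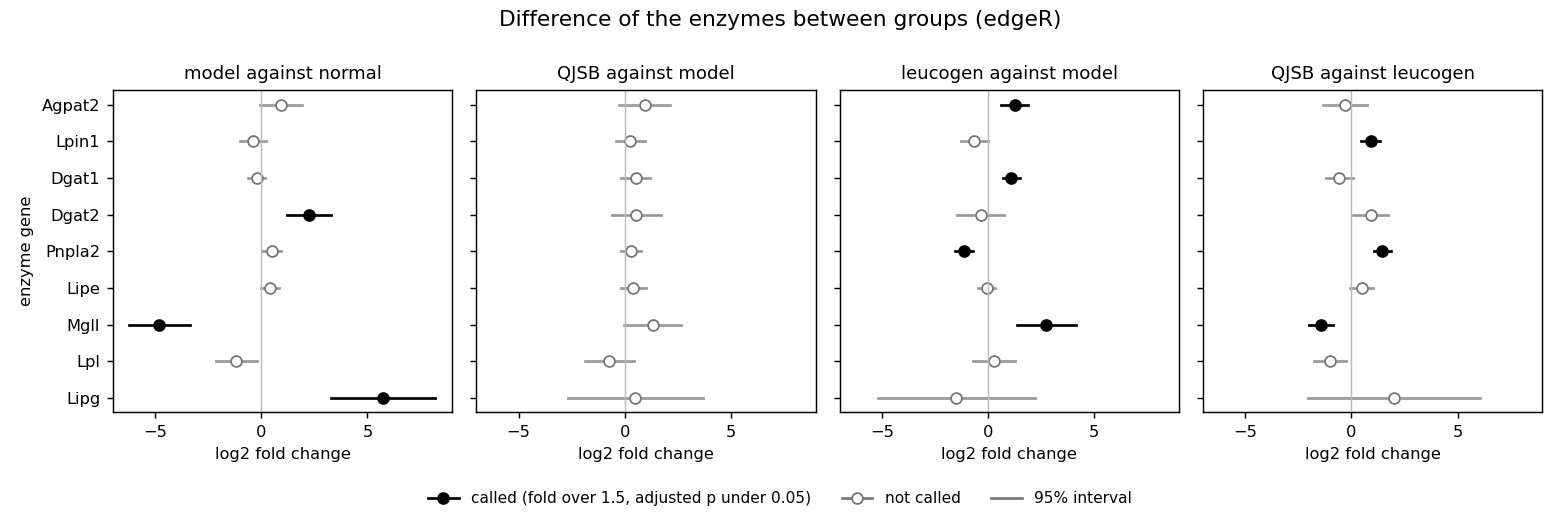
Log2 fold change of each enzyme in 4 comparisons (points) with its 95% interval (lines) from edgeR, filled where the fold was over 1.5 and the adjusted p under 0.05. The QJSB against model panel has no filled point, the leucogen against model panel has 4 and the other panels have 3 each.

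Whether leucogen moved the enzymes was asked in the same way, with leucogen against model mice. Mgll, Agpat2 and Dgat1 rose and Pnpla2 fell, so 4 of the 9 were called, 3 higher and 1 lower. Of 14184 genes tested 23.1% were called, 11.6% higher and 11.5% lower. The study's cutoff took 5 enzymes beside 29.6% of all genes, and 5 enzymes had groups that did not overlap beside 46.0% of all genes. The median log2 difference was −0.07 over the 9 enzymes and −0.05 over all genes. Without leucogen mouse 3 the share of all genes called was 8.44%, and 2 of the 9 enzymes, Dgat1 and Pnpla2, were called.

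Pnpla2 had 16.0, 18.3 and 13.9 CPM in the leucogen mice, all below the lowest model mouse. The fall was 2.21-fold, a log2 fold change of −1.15 (SE 0.19; edgeR, adjusted p = 0.00534). Mgll had 14.1, 18.1 and 19.8 CPM, all above every model mouse and all below every normal mouse. It was 6.68-fold above model, a log2 fold change of 2.74 (SE 0.59; edgeR, adjusted p = 0.0163), missed the threshold without leucogen mouse 3 (2.64, adjusted p = 0.0591) and was 3.87 without model mouse 1. The nested models Gm44001, Gm44005 and Gm43999 had 9.53 to 10.2, 10.7 to 14.8 and 8.41 to 10.5 CPM in the leucogen mice. Lipe had 19.5, 23.6 and 20.1 CPM, which overlapped the model mice, and differed by −0.07 (95% interval −0.49 to 0.34) on the log2 scale.

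Agpat2 had 66.1, 83.7 and 71.1 CPM in the leucogen mice, all above the highest model mouse. The rise was 2.37-fold, a log2 fold change of 1.25 (SE 0.27; edgeR, adjusted p = 0.0132). It was lost without leucogen mouse 3 (adjusted p = 0.0512) and in the edgeR fit of all 12 libraries (adjusted p = 0.0829). Dgat1 had 55.9, 62.6 and 52.9 CPM, again above every model mouse, and rose 2.13-fold, a log2 fold change of 1.09 (SE 0.18; edgeR, adjusted p = 0.00454). Late neutrophil markers were also higher in every leucogen mouse than in every model mouse, as given above, and their part in these rises was not tested.

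Dgat2 did not rise with Dgat1. It had 41.2, 68.8 and 39.9 CPM in the leucogen mice, within the model range, and its log2 difference was −0.35 (95% interval −1.46 to 0.77). Without model mouse 3 that difference turned to 0.30. Lpin1 had 7.07, 8.27 and 7.97 CPM, all just below the lowest model mouse. The log2 difference of −0.65 (SE 0.28) passed the study's cutoff only (edgeR, unadjusted p = 0.0474, adjusted p = 0.117).

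Lpl had 24.3, 20.9 and 27.2 CPM in the leucogen mice, between model mouse 1 and the other 2. The log2 difference was 0.27 (95% interval −0.71 to 1.26; edgeR, adjusted p = 0.657), and without model mouse 1 it was 0.97 and called (adjusted p = 0.0224). Lipg had 1.11, 35.6 and 52.6 CPM, with mouse 1 at the level of normal mice and the other 2 within the model range. Its log2 difference was −1.50 (−5.20 to 2.20; edgeR, adjusted p = 0.479).

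The sequence before the start of transcription is shown for the 3 enzymes that were called between leucogen and model mice and have an entry among the RefSeq promoters. Each line holds 250 bases before and 50 after the start (RefSeq, GRCm38.p6), read 5′ to 3′ on the strand of the gene, with matches to GGGCGG (GC box) and CACGTG (E box) on either strand in capitals. Mgll is chr6:88724162-88724461 on the plus strand, Pnpla2 chr7:141454938-141455237 on the plus strand and Agpat2 chr2:26604368-26604667 on the minus strand.
Mgll: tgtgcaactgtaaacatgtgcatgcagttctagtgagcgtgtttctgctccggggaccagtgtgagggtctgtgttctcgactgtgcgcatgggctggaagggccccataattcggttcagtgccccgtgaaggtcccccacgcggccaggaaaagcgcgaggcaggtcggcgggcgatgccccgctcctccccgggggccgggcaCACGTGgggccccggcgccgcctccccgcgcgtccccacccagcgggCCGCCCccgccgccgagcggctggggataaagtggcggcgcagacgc
Pnpla2: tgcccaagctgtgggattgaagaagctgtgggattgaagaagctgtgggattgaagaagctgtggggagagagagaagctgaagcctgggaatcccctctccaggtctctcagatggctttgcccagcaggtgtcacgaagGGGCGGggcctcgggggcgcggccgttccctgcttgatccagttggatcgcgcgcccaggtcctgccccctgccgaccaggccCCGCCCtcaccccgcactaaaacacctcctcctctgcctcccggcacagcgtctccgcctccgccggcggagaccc
Agpat2: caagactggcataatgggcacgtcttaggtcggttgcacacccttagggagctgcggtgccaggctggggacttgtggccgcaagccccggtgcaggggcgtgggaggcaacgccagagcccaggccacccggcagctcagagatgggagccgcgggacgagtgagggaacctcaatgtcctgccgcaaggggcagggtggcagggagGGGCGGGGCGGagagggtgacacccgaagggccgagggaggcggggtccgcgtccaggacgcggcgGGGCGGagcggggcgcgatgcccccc

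The Mgll window held an E box that began 44 bases before the start and a GC box just after it. A second start of Mgll in the RefSeq table, with the window chr6:88724454-88724753 on the plus strand, is not printed, and it held a GC box 121 bases before the start and no E box. The Pnpla2 window held GC boxes 109 and 26 bases before the start, and the Agpat2 window held 3 GC boxes, of which the pair at 42 and 37 bases before the start overlap. A GC box was found in 35.7% and an E box in 7.15% of all 32851 promoters searched in the same way. TATAAA (13.6% of promoters), CCAAT (37.4%), TGACGTCA (1.79%) and a direct repeat of the PPAR type (0.0396%) were in none of the 3 windows shown. GC made up 70.0%, 65.3% and 72.0% of the bases of the Mgll, Pnpla2 and Agpat2 windows, against a median of 52.7% over all promoters. Of the other enzymes, Lipe and Lpin1 also have an entry, and Dgat1, Dgat2, Lpl and Lipg have none in the table used. A match of letters is a description and not a binding site.

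The drug groups were compared directly, QJSB against leucogen, which tests the difference between their effects in mice that all received cyclophosphamide. Pnpla2 and Lpin1 were higher and Mgll was lower in QJSB mice, so 3 of the 9 were called, 2 higher and 1 lower. Of 14266 genes 24.6% were called, 12.9% higher and 11.7% lower. The study's cutoff took 5 enzymes beside 30.6% of all genes, and 5 enzymes had groups apart beside 48.8% of all genes. The median log2 difference was 0.48 over the 9 enzymes and 0.03 over all genes. Same-numbered mice of these groups deviated together, and a fit blocked by that number called 5 enzymes, with Dgat2 (0.85, edgeR adjusted p = 0.0409) and Lpl (−1.09, edgeR adjusted p = 0.0314) added. Over all genes the block called 25.8%. Without QJSB mouse 1, the QJSB mouse with high Col1a1, 6 were called, which were these 5 and Lipe, beside 24.9% of all genes.

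The widest gap was in Pnpla2, whose lowest QJSB mouse had 38.9 CPM and whose highest leucogen mouse had 18.3. The difference was 2.72-fold, or 1.45 on the log2 scale (SE 0.18; edgeR, adjusted p = 0.00287). Mgll was 2.68-fold lower in QJSB than in leucogen mice, with 4.67 to 7.70 against 14.1 to 19.8 CPM, a log2 difference of −1.42 (SE 0.25; edgeR, adjusted p = 0.00549). Lpin1 had 11.8 to 16.9 CPM in QJSB and 7.07 to 8.27 in leucogen mice, a log2 difference of 0.90 (SE 0.20; edgeR, adjusted p = 0.0123). That call was lost without leucogen mouse 1 (adjusted p = 0.0563) or leucogen mouse 3 (adjusted p = 0.0557), when 14.7% and 10.5% of all genes were called.

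Lpl was below every leucogen mouse in every QJSB mouse, with a log2 difference of −1.0 (SE 0.33; edgeR, adjusted p = 0.0524) that became −1.50 and called without QJSB mouse 1 (adjusted p = 9.5e-04). Dgat1 was likewise lower in every QJSB mouse, by −0.58 (SE 0.28; edgeR, adjusted p = 0.153), and Dgat2 differed by 0.90 (SE 0.35; edgeR, adjusted p = 0.0896). Neither Lipe (0.48, 95% interval −0.05 to 1.01) nor Agpat2 (−0.31, −1.36 to 0.75) nor Lipg (2.02, −2.03 to 6.06) was called. The size of the Agpat2 difference depended on QJSB mouse 2: without this mouse the log2 difference grew to −1.01 and was called (edgeR, adjusted p = 0.0168).

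Against normal mice, 7 of the 9 enzymes were called in each drug group. In QJSB mice 5 were higher (Agpat2, Dgat2, Pnpla2, Lipe and Lipg) and 2 lower (Mgll and Lpl), beside 37.9% of 14817 genes called, 18.0% higher and 19.9% lower. In leucogen mice 3 were higher (Agpat2, Dgat1 and Dgat2) and 4 lower (Lpin1, Pnpla2, Mgll and Lpl), beside 37.7% of 14637 genes called, 17.8% higher and 19.8% lower. Both comparisons share the normal mice. Pnpla2 was on opposite sides of normal, with a log2 difference of 0.81 (SE 0.18; edgeR, adjusted p = 0.00953) in QJSB mice and of −0.65 (SE 0.17; edgeR, adjusted p = 0.00795) in leucogen mice. Leaving out normal mouse 3 or leucogen mouse 3 brought the latter to −0.56 or −0.57, under the fold that was asked. Mgll stayed 11.1-fold below normal in QJSB mice (edgeR, adjusted p = 6.1e-05) and 4.16-fold below in leucogen mice (edgeR, adjusted p = 4.7e-05). The rise of Agpat2 in QJSB mice (1.89, edgeR adjusted p = 0.0287) was lost without normal mouse 2 or 3 or without QJSB mouse 1 or 2 (adjusted p from 0.0612 to 0.0969), and was 1.17 without QJSB mouse 2. The rise of Lipe (0.83, edgeR adjusted p = 0.0212) was lost without any of the normal mice and without QJSB mouse 2 or 3 (adjusted p from 0.0525 to 0.0819), and that of Lipg (6.26, edgeR adjusted p = 0.00735) was lost without QJSB mouse 1 (adjusted p = 0.0526) and was 4.36 without QJSB mouse 3. In leucogen mice Lipg differed from normal by 4.23 and was not called (edgeR, adjusted p = 0.0712), but without leucogen mouse 1 it differed by 4.81 and was called (edgeR, adjusted p = 2.6e-06).

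The order of the mean CPM differed among the enzymes. Mgll ran normal, leucogen, QJSB, model from high to low, and both the step from normal to leucogen and that from leucogen to QJSB were called. For Lpl the order was normal, leucogen, model, QJSB, with a called step from normal to leucogen only. Dgat2, Lipe and Lipg all ran QJSB, model, leucogen, normal, and of their steps only that of Dgat2 from leucogen to normal was called. Pnpla2 ran QJSB, model, normal, leucogen, with a called step from normal to leucogen. Agpat2 (leucogen, QJSB, model, normal), Dgat1 (leucogen, QJSB, normal, model) and Lpin1 (normal, QJSB, model, leucogen) had no called step between neighbours, although their ends differed in the comparisons given above or, for Dgat1, between leucogen and model.

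The genes nearest in profile were closer for the enzymes that varied little. Lipe was matched by Kctd10 and Furin with root mean square differences of 0.10 in log2 CPM, Dgat1 by Lgals4 (0.11) and Gmip (0.13), Pnpla2 by Rnf26 (0.13) and Atp5d (0.15), and Lpin1 by Hgsnat (0.17) and Hes6 (0.20). Dgat2 was nearest to Csf2rb (0.28), the common chain of the receptors for GM-CSF, interleukin 3 and interleukin 5, and to Fah (0.30). Agpat2 had no close match, with Pde8a and Aff2 at 0.53. Lipg was the least matched, with Gpnmb at 1.64 and the coagulation factor gene F10 at 1.76. Gpnmb, a gene of lipid-laden macrophages, had 0.206 to 0.435 CPM in normal mice, 17.4 to 31.5 in model mice, 14.7 to 49.2 in QJSB mice and 7.71 to 12.9 in leucogen mice. The 8 macrophage markers, Gpnmb among them, summed to 468 to 515 CPM in normal, 239 to 358 in model, 279 to 347 in QJSB and 230 to 260 in leucogen mice. Most of this sum was Vcam1, with a mean of 262 of 484 CPM in normal and 174 of 309 in model mice. Its members did not move alike. From normal to model mice mean Gpnmb went from 0.283 to 23.8 CPM and Adgre1 from 46.0 to 40.8. C1qa, C1qb, C1qc, Spic and Mrc1 had lower means in model mice. The sum of the monocyte markers, mostly F13a1, was higher in model, QJSB and leucogen mice than in normal mice, as given above. Mean Ccr2 in QJSB mice and mean Csf1r in leucogen mice were not above normal. Among the model mice the monocyte sum was 2860, 2120 and 1800 CPM in mice 1, 2 and 3, and Lipg was highest in mouse 3. The part of macrophages and monocytes in the level of Lipg was not tested.

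The proteins that hold Pnpla2 in check or help it were followed in a list of 18 genes of the lipid droplet coat and lipase regulators, 11 of which were tested in model against normal and 10 in leucogen against model. Against normal, 4 rose in model mice and none fell, among them the droplet coat genes Plin2 (1.19, edgeR adjusted p = 1.7e-04) and Plin3 (1.59, edgeR adjusted p = 8.5e-04) and the seipin gene Bscl2 (0.87, edgeR adjusted p = 0.00639) on the log2 scale. In QJSB against model 0 of 11 were called by edgeR or DESeq2, and only Plin2 had an unadjusted p under 0.05 (−0.41, unadjusted p = 0.0495 in edgeR). Abhd5 (0.65) and Plin4 (−0.60) followed it in order of p. In leucogen against model 2 rose and 2 fell. Those that rose were G0s2, the inhibitor of Pnpla2, with 9.50 to 16.0 CPM against 3.58 to 6.38 (1.37, edgeR adjusted p = 0.0116), and Abhd5, its co-activator, with 169 to 253 against 63.5 to 121 (1.09, edgeR adjusted p = 0.0149). Those that fell were Plin2, with 43.9 to 61.0 against 119 to 144 CPM (−1.39, edgeR adjusted p = 0.00194), and Bscl2 (−0.69, edgeR adjusted p = 0.0295). Pnpla2 thus fell together with Plin2 while both G0s2 and Abhd5 rose. The FPKM of G0s2 divided by that of Pnpla2 was 4.15 to 8.85 in leucogen mice, above all other groups except for a normal mouse at 4.20, the rest lying between 0.623 and 3.07.

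**Figure D5:**
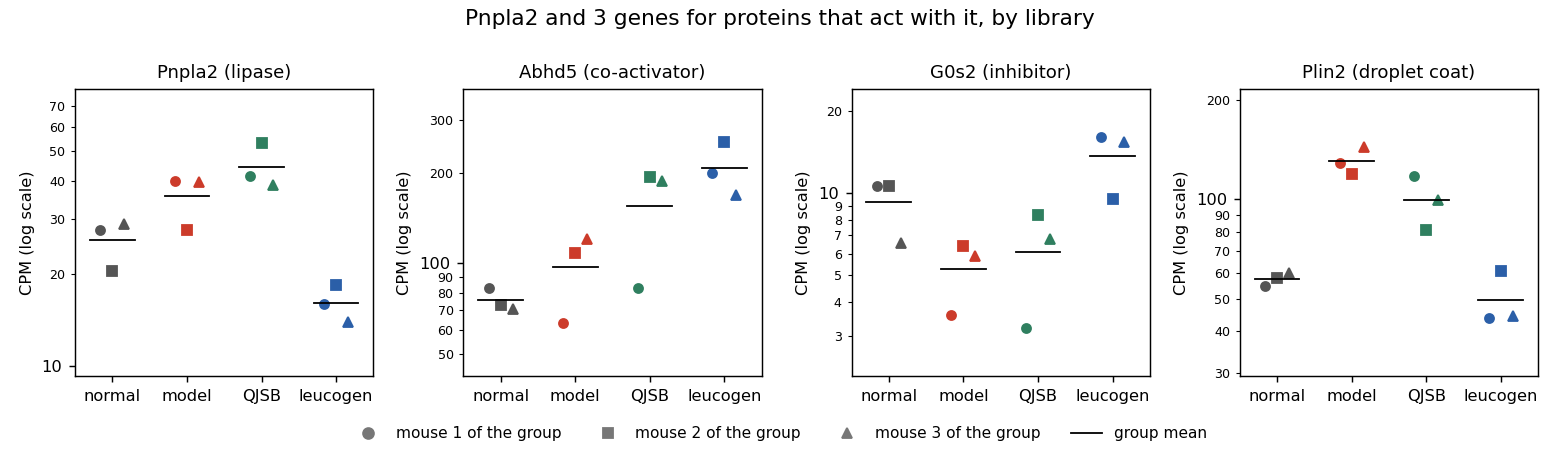
CPM on a log axis by library for Pnpla2, its co-activator Abhd5, its inhibitor G0s2 and the droplet coat gene Plin2, with marker shapes and mean lines as in the plot of all enzymes. Leucogen mice are the lowest group for Pnpla2 and below all model and QJSB mice for Plin2, and above all model and QJSB mice for G0s2.

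The genes that supply phosphatidate and glycerol made a list of 17, of which 14 were tested. In model against normal 2 rose and 7 fell. The 3 with the smallest p were Plpp1, a lipid phosphate phosphatase (−3.70, edgeR adjusted p = 5.7e-05), Agpat4 (−2.37, edgeR adjusted p = 7.1e-05) and Gpam, the mitochondrial enzyme of the first acylation (−1.88, edgeR adjusted p = 1.3e-04). Gpam had 63.9 to 69.6 CPM in normal mice and 8.06 to 23.4 in the other 9. So the acyltransferases did not move together: Agpat4 and Gpam fell in the mice in which Dgat2 rose. In QJSB against model 0 of 14 were called by edgeR or DESeq2, with Mogat2 alone at an unadjusted p under 0.05 (0.73, unadjusted p = 0.0285 in edgeR), followed by Gpd1 (−0.94) and Agpat5 (−0.25). In leucogen against model 2 rose, Gpat3 (1.01, edgeR adjusted p = 0.0163) and Mogat2, which makes diacylglycerol from monoacylglycerol (0.79, edgeR adjusted p = 0.0451), and Gpam fell further (−1.02, edgeR adjusted p = 0.0119).

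Partners of Lpl and fatty acid uptake genes made a list of 25, with 17 tested in model against normal. There 6 rose and 2 fell. Cd36, a fatty acid transporter, fell from between 261 and 274 CPM to between 6.06 and 20.1 (−4.29, edgeR adjusted p = 2.7e-04), and the lipoprotein receptor gene Vldlr rose (1.90, edgeR adjusted p = 4.2e-04), as did Sel1l, which serves in the maturation of lipoprotein lipase (0.85, edgeR adjusted p = 8.6e-04). Gpihbp1, which carries Lpl to the capillary wall, was close to 0, with at most 1.16 CPM in any library. In QJSB against model 0 of 19 were called by edgeR or DESeq2, and 4 had an unadjusted p under 0.05 in edgeR, led by Slc27a4 (1.61, unadjusted p = 0.0255), Vldlr (−1.03, unadjusted p = 0.0332) and Furin (0.52, unadjusted p = 0.0466). Leucogen against model had 2 higher and 6 lower of 17, led by the fatty acid transport genes Slc27a1 (−2.11, edgeR adjusted p = 0.00356) and Slc27a4 (1.30, edgeR adjusted p = 0.00494) and by Angptl4, an inhibitor of Lpl, which fell from between 7.80 and 10.2 CPM to between 2.78 and 3.65 (−1.45, edgeR adjusted p = 0.00501).

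Of 14 transcription factors of lipid metabolism 11 were tested. In model against normal 3 rose and 3 fell, led by Foxo1 (−2.60, edgeR adjusted p = 6.9e-05), Cebpa (1.57, edgeR adjusted p = 1.2e-04) and Tfeb (−1.01, edgeR adjusted p = 9.9e-04). Foxo1, which is known to drive Pnpla2 in fat cells, had 118 to 129 CPM in normal mice and 16.3 to 27.9 in model mice. Pnpla2 was not called in that comparison. In leucogen against model both were called lower, and in QJSB against normal Foxo1 was called lower and Pnpla2 higher. The part of Foxo1 in the level of Pnpla2 was not tested. In model against normal Pparg also fell (−1.02, edgeR adjusted p = 0.0181). In QJSB against model 0 of 11 were called by edgeR or DESeq2 and 0 had an unadjusted p under 0.05 in edgeR, the lowest being Srebf2 (0.51, unadjusted p = 0.0502), Nr1h2 (0.36) and Rxra (0.88). In leucogen against model 0 rose and 3 fell, Cebpa (−0.79, edgeR adjusted p = 0.00938), Srebf1 (−0.67, edgeR adjusted p = 0.021) and Foxo1 (−0.80, edgeR adjusted p = 0.0396).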

How the data were processed

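RNA of femoral marrow cells was depleted of ribosomal RNA and sequenced from strand-specific libraries, and reads were filtered with Seqtk and mapped with Hisat2 to mouse GRCm38.p4. The authors deposited read counts per gene without normalization and, beside them, FPKM that they computed from fragments, transcript length and library total. The counting program and its strand setting are not given in the sources used here. The count columns are headed Blank, Model, Positive and Stilbene, and Blank was taken as normal, Positive as leucogen and Stilbene as QJSB by meaning and elimination. Under this reading, 300 of 300 genes in each of 3 comparisons matched the normalized group means in the study's supplement within 1%, and any other reading matched at most 10, so the assignment rests in part on values. No column was left unused (0). The supplement's fold changes and p-values were not used.

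Counts were tested with edgeR 4.0.16 in R 4.3.3 (TMM factors, filterByExpr, robust glmQLFit, glmQLFTest), each time on the 6 libraries of the groups compared. Intervals are 95% and come from the fit. CPM used TMM factors over the 12 libraries, and log2 CPM a prior count of 2. Totals of 11172547 to 18545198 counts limit counting error only. P-values set the difference between groups of 3 mice against the spread of mice within a group, estimated with information shared across genes. The 9 genes, the lists beside them and the tests were chosen with earlier results of these data known. Of each list, the genes named in model against normal and leucogen against model are the 3 called genes with the smallest p. In QJSB against model, where none was called, they are the 3 tested genes with the smallest p. G0s2 and Abhd5 are followed in all groups for their part in lipolysis, and Pparg, Bscl2 and Gpihbp1 in leucogen or model mice were named after their values were seen. For each enzyme the 2 nearest profiles are named, among genes with a mean CPM of at least 5. In all, 5 list genes were found by identifier under older symbols. Promoters came from the RefSeq table.

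Alternatives were DESeq2 1.42.0, its size factors in edgeR, total counts, other filters, 1 fit of all libraries, the replicate number as a block, limma 3.58.1 on log2(FPKM + 0.1) and log2(FPKM + 1), and each library left out. Same-numbered libraries deviated together in QJSB and model (correlations 0.453, 0.136 and 0.103) and in QJSB and leucogen (0.174, 0.157 and 0.11), but not in the other pairs of groups. This pairing comes from the data alone, since no source says what a number marks. The tests were first run on simulated data.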

Additional observations from a re-analysis of the deposited data

Results flagged for a closer look

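The effects of the 2 drugs, each against the same model mice, differed for 3 of the 9 enzymes by a direct edgeR test of QJSB against leucogen mice. In that comparison 24.6% of all genes were called, and 48.8% had groups that did not overlap. Pnpla2 was higher by 1.45 on the log2 scale in QJSB than in leucogen mice (adjusted p = 0.00287), with all 3 QJSB mice above all 3 leucogen mice. Mgll was lower by −1.42 (adjusted p = 0.00549), with all 3 QJSB mice below all 3 leucogen mice. Lpin1 was higher by 0.90 (adjusted p = 0.0123), again with no overlap. As given above, the Lpin1 call was lost without leucogen mouse 1 or leucogen mouse 3. Late neutrophil markers summed to 3200 to 17700 CPM in QJSB and 13600 to 17500 in leucogen mice, and their part in these differences was not tested.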

How the results depend on the processing

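Of 54 differences (9 enzymes in 6 comparisons), 24 were called and 16 of these kept their call and direction under every alternative. None of the 24 changed direction. In model against normal, 3 enzymes were called, and 5 with DESeq2, which called 24.8% of its 21863 genes. With each library left out in turn the number was 3 to 5, and 27.4% to 36.1% of all genes were called. In leucogen against model, 4 were called, and 2 to 5 with a library left out, when the share of all genes ran from 8.44% (without leucogen mouse 3) to 27.2% (without model mouse 2). In QJSB against leucogen, 3 were called. With DESeq2, with the replicate number as a block and at the study's cutoff it was 5 each. The shares of all genes were 17.6% (of 21435), 25.8% and 30.6% in that order. With a library left out 2 to 6 were called, when 10.5% (without leucogen mouse 3) to 24.9% (without QJSB mouse 1) of all genes were called. In QJSB against model no alternative called an enzyme. In the 4 pairs of groups whose numbers do not pair the mice, the block added Lipg in leucogen against model (−1.91, edgeR adjusted p = 0.0369) and Lpl in model against normal (−1.36, edgeR adjusted p = 0.0395) and lost Agpat2 in QJSB against normal (1.77, edgeR adjusted p = 0.0552). It changed no call of an enzyme beyond these and those of QJSB against leucogen.

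Directions turned for differences that were not called. Lipg in QJSB against model was −0.06 and −0.03 with limma on log2(FPKM + 0.1) and log2(FPKM + 1), and ran from −1.39 to 1.27 with a library left out. Ranges with a library left out also crossed 0 for Dgat2 (−0.66 to 0.30) and Lipe (−0.15 to 0.13) in leucogen against model, Agpat2 in QJSB against leucogen (−1.01 to 0.01) and Lpin1 in QJSB against normal (−0.21 to 0.04). The cause was not tested. With total counts in place of TMM, the median log2 difference over all genes in model against normal was 0.14 instead of 0.02, genes called were 3024 higher and 2346 lower instead of 2368 and 2803, and Pnpla2 was called as well (0.61, edgeR adjusted p = 0.0438). Groups of 3 mice with several-fold spread in Lipg, Mgll and Agpat2 limit what can be detected.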
